A study of Arabidopsis thaliana with 75 samples.

Results

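The genes described here are the respiratory burst oxidase homolog (RBOH) family of Arabidopsis thaliana, the plant NADPH oxidases. The best known of them in the root is ROOT HAIR DEFECTIVE 2 (RHD2, AT5G51060, also called RBOHC). Members were taken by locus identifier, and all 10 were among the 21440 genes with a value: RHD2, RBOHA (AT5G07390), RBOHB (AT1G09090), RBOHD (AT5G47910), RBOHE (AT1G19230), RBOHF (AT1G64060), RBOHG (AT4G25090), RBOHH (AT5G60010), RBOHI (AT4G11230) and RBOHJ (AT3G45810). The letters E, G and I follow the usual naming of the family, since the RefSeq gene table used for names lists these loci without a symbol.

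NADPH oxidases sit in the plasma membrane, take electrons from NADPH in the cytoplasm and pass them to oxygen outside the cell. The superoxide made in this way is soon turned into hydrogen peroxide. In a growing root hair, RHD2 makes reactive oxygen species at the tip, where they take part in opening calcium channels, and calcium in turn activates the oxidase. Small GTPases of the ROP class, their exchange factors and several protein kinases act on these enzymes. RBOHD and RBOHF are known from defence and stress responses, and RBOHH and RBOHJ from the growth of pollen tubes, another tip-growing cell.

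Each array measured RNA of root epidermal cells sorted by the green fluorescence of the WER::GFP reporter, which every line carried and which marks the developing epidermis together with the lateral root cap. There were 75 Affymetrix ATH1 arrays in 25 groups of 3 biological replicates. The seedlings were 5 days old, and roots were cut about 2 mm from the tip. The tested lines at Michigan were wer myb23 (wer-1 myb23-1), gl3 egl3 (gl3-1 egl3-1), ttg (ttg1-13), gl2 (gl2-1), myc1 (myc1-1), bhlh66 (bhlh66-1), cobl9 (cobl9-1), cow1 (cow1-3), ire (ire1-2), lrx1 (lrx1-4), mrh1 (mrh1-1), mrh2 (mrh2-1), mrh3 (mrh3-3), rhd2 (rhd2-1), csld3 (csld3-1), rhd6 (rhd6-1) and cpc try (cpc-1 try-82). Further rhd6 seedlings were moved to medium with the auxin IAA, to medium with the ethylene precursor ACC, or to plain MS medium, and wild type Columbia completed the 21 Michigan groups of 63 arrays. The 12 Duke arrays formed 4 groups: ttg, gl3 egl3, wer myb23, and cpc try. In wer myb23, gl3 egl3 and ttg, here called the hairy lines, nearly all epidermal cells take the hair fate, whereas cpc try forms almost no hairs. The rhd2-1 allele is a base substitution that makes a premature stop codon, so a transcript can still be present.

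Values are log2 signals as deposited, and a difference of 1 is a 2-fold change. The arrays of the facilities had different distributions, with medians of 6.02 to 6.14 for Duke and 6.50 to 6.86 for Michigan. They were fitted apart, and no level was set across them. The mean of 6 hair cell marker genes lay between 8.98 and 9.85 in the Duke hairy lines, against 5.34 in cpc try, and between 10.22 and 10.84 in the Michigan hairy lines, against 5.32 in cpc try. In Michigan wild type it was 10.63, within the range of the hairy lines. The means of 5 cortex and endodermis markers were at most 4.89 in any Michigan group and 5.48 in any Duke group. CASP1 and SCR were the brightest of them, above 41.1% and 37.4% of genes at Michigan and above 61.0% and 49.9% at Duke. Of 6 stele markers, WOL was bright, with a mean of 10.01 at Michigan and 9.27 at Duke. The others were dimmer. SHR, APL, VND7, SUC2 and PHO1 had means of 3.92, 3.89, 3.55, 5.335 and 4.26 at Michigan. At Duke their means were 5.07, 4.34, 3.99, 5.41 and 5.17. Of 4 lateral root cap markers, BRN1 and BRN2 had means of 9.92 and 10.25 at Michigan and 9.96 and 10.12 at Duke, SMB had 8.46 and 8.18, and FEZ had 6.84 and 6.38. Some libraries stood apart. The Duke gl3 egl3 arrays differed from cpc try in 17.1% of genes, against 3.08% for wer myb23 and 2.71% for ttg. In Michigan gl3 egl3 replicate 2, the mean of 3 non-hair markers was 8.0, against 4.21 and 5.12 in its fellow arrays. In Michigan wer myb23 that mean was 7.37, 7.99 and 7.11, close to the 7.84, 7.69 and 7.06 of wild type. In mrh2 replicate 1, the hair markers averaged 7.99, against 10.3 and 10.8 in its fellow arrays. In Duke wer myb23 replicate 2, they averaged 8.08, against 9.6 and 9.27 in its fellow arrays. The mean of a list of stress response genes was 7.09 in that array, against 8.77 and 9.32.

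RHD2 was among the bright genes of the sorted cells. Its mean exceeded that of 90.8% of genes at Michigan and of 93.7% at Duke, and its Michigan group means spanned only 1.32 log2 units, between 10.65 in mrh1 and 9.33 in rhd6 on MS. The lowest end of the order held 5 groups: rhd2 with 9.62, 9.30 and 9.96, cpc try with 9.95, 9.67 and 9.24, rhd6 with 9.13, 9.84 and 9.74, csld3 with 9.32, 8.94 and 9.91, and rhd6 on MS with 9.02, 9.57 and 9.41. A gap of 0.368 lay between the next group, rhd6 on ACC, and rhd2, and this was the only gap between neighbours in the order that exceeded the pooled SD of the groups beside it. Wild type held a middle place, with 10.06, 10.41 and 9.78. The pooled SD within groups was 0.364, close to the median over all genes of 0.381.

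In the plot of signals by group, RHD2 runs in a narrow band near 10 while RBOHE, RBOHG and RBOHI drop in cpc try. A moderated F test over the 21 Michigan groups, added after values had been seen, called 4 of the 10 members at 5% FDR, where 29.8% of all genes were called. These were RBOHE (adjusted p = 9.86e-05 in limma), RHD2 (0.00157), RBOHG (0.00168) and RBOHI (0.0179). The test does not say which groups differ.

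**Figure D1:**
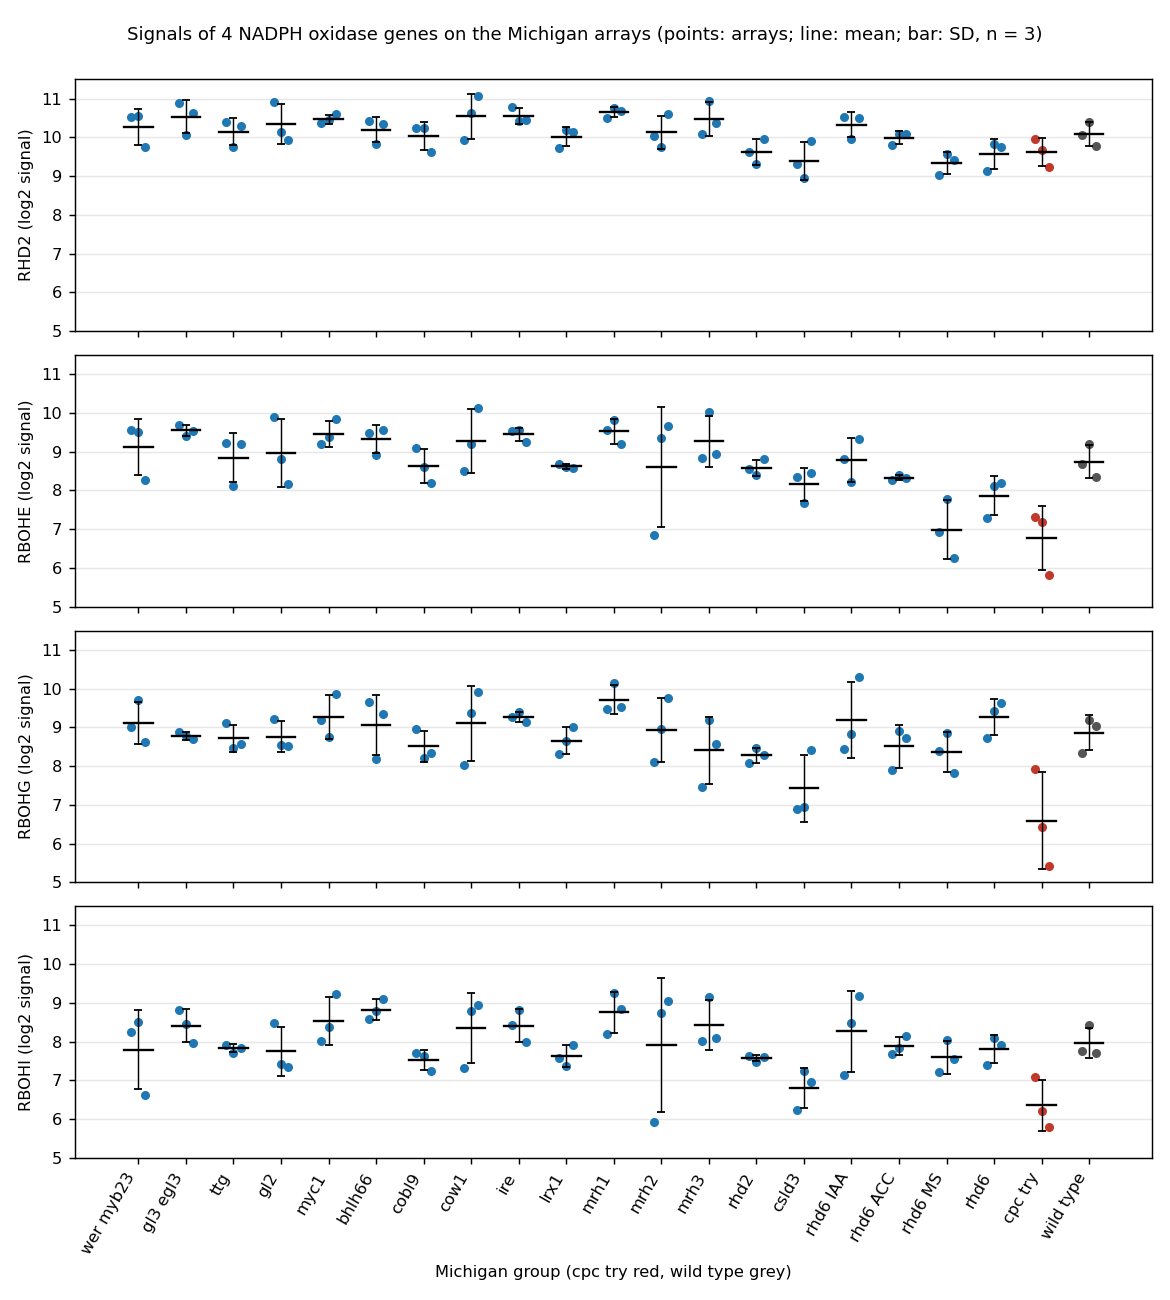
Log2 signals of RHD2, RBOHE, RBOHG and RBOHI on the 63 Michigan arrays, by group. Points are arrays, horizontal lines are group means and bars are SD (n = 3). RHD2 group means lie between 9.33 and 10.65, while the other genes reach their lowest group mean in cpc try.

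The next question was which members differ between hair-rich and hair-poor epidermis. At Michigan RBOHE and RBOHG were higher in the hairy lines, by 5.28-fold and 4.84-fold, and no member was called at Duke. RBOHE, which has a described role in the tapetum of anthers, read 9.56, 9.52 and 8.28 in wer myb23, 9.70, 9.40 and 9.54 in gl3 egl3 and 9.22, 8.11 and 9.19 in ttg, against 7.32, 7.18 and 5.81 in cpc try. All 9 arrays of the hairy lines lay above all 3 arrays of cpc try. The difference was 2.40 (SE 0.37, limma adjusted p = 0.00169).

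RBOHG read 9.0, 9.70 and 8.62 in wer myb23, 8.89, 8.78 and 8.69 in gl3 egl3 and 9.11, 8.47 and 8.56 in ttg, against 7.94, 6.41 and 5.43 in cpc try. Again the classes did not overlap, although the cpc try arrays spread over 2.51 log2 units. The difference was 2.28 (SE 0.41, limma adjusted p = 0.00422). These 2 of 10 members called at 1% FDR compare with 5.11% of all genes. In bulk RNA, fewer cells of a type and less RNA per cell cannot be told apart. Markers of other cell types moved in the same comparison. The hair and non-hair markers used here are among the paper's core genes. Those genes were chosen for a 2-fold change between each hairy line and cpc try on these arrays. The direction of these markers here and at Duke was thus fixed by that choice. All 6 hair cell markers were called higher, 2 of 3 non-hair markers lower (median -2.56), and 1 of 4 lateral root cap markers lower, which was FEZ (6.72 in the hairy lines and 8.20 in cpc try, a difference of -1.48, SE 0.30, adjusted p = 0.00817). SMB differed by -0.92 (SE 0.35, adjusted p = 0.124), BRN1 by -0.35 and BRN2 by 0.31, and no cortex, endodermis or stele marker was called. The part of these markers in the RBOHE and RBOHG differences was not tested. Both calls rested on particular arrays. Without cpc try replicate 3, the lowest array for both genes, RBOHE differed by 1.92 (adjusted p = 0.012) and RBOHG by 1.69 (adjusted p = 0.0247). RBOHG also missed the threshold without cpc try replicate 2 (adjusted p = 0.0286) or without ttg replicate 1 (adjusted p = 0.0103). Without the gl3 egl3 arrays, a setting added after values had been seen, RBOHE was 2.21 and RBOHG 2.32 higher, with adjusted p = 0.0122 and 0.0154, and none of the 10 members was called, where 3.94% of genes were.

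RBOHI came next. It averaged 8.02 in the hairy lines and 6.36 in cpc try, a difference of 1.66 (SE 0.38, limma adjusted p = 0.0152), with wer myb23 replicate 3, at 6.63, inside the cpc try range of 5.79 to 7.08. RBOHI passed 1% FDR with the replicate block (adjusted p = 0.00638), without cpc try replicate 1 (0.00891) and without wer myb23 replicate 3 (0.00128). That array is the only one of its array series in this comparison, so taking the series as a factor is the same fit. The replicate block did not stand for a pairing here. Same-numbered arrays of these lines had a median correlation of -0.0597 in deviations from group means, against 0.0321 for other pairs. RHD2 itself averaged 10.32 in the hairy lines and 9.62 in cpc try, a difference of 0.70 (SE 0.25, adjusted p = 0.102), and the ranges overlapped. RBOHA had a difference of 0.84 (SE 0.29, adjusted p = 0.0857). RBOHD had the opposite sign and overlapping ranges, at 5.72 in the hairy lines and 7.45 in cpc try, with a difference of -1.72 (SE 0.47, adjusted p = 0.0353). RBOHB, RBOHF, RBOHH and RBOHJ had differences between -0.53 and 0.29 with adjusted p of 0.697 or more.

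At Duke none of the 10 members was called at 1% FDR by limma, where 3.46% of all genes were, and 1 had an unadjusted p under 0.01. That member was RBOHB, which has been described in seed germination. It read 3.97, 4.00 and 4.20 in wer myb23, 4.20, 4.16 and 4.01 in gl3 egl3 and 4.10, 4.14 and 4.29 in ttg, against 4.52, 5.75 and 6.39 in cpc try. The classes did not overlap, and the hairy lines sat close to the 5th percentile of the Duke arrays, which was 3.83 to 4.01. The difference was -1.43 (SE 0.29, adjusted p = 0.0135), and without cpc try replicate 1 it was -1.95 (adjusted p = 0.000289). At Michigan the RBOHB difference was -0.53 (SE 0.71), with cpc try inside the range of the hairy lines.

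RBOHE at Duke averaged 6.46 in the hairy lines and 5.45 in cpc try, a difference of 1.01 (SE 0.47, adjusted p = 0.24). The gl3 egl3 arrays read 8.28, 7.63 and 5.96 and held the highest values. Without the gl3 egl3 arrays the difference was 0.60, and again no member was called, where 2.81% of genes were. RBOHG averaged 6.33 in the hairy lines and 6.38 in cpc try, and RBOHI 4.95 and 4.91. The RBOHG arrays of the hairy lines ran from 4.58 in wer myb23 replicate 2 to 7.86 in gl3 egl3 replicate 1. RHD2 averaged 10.03 in the hairy lines and 9.70 in cpc try, a difference of 0.33 (SE 0.33). Among the markers at Duke, 5 of 6 for hair cells were called higher, and all 3 for non-hair cells and FEZ lower (FEZ by -1.10, SE 0.21, adjusted p = 0.00932). The other lateral root cap markers differed by -0.09 to 0.44 and were not called.

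The difference between the facilities was tested as an interaction over 24 arrays. No member was called at 1% FDR by limma, against 0.938% of all genes, and 2 had an unadjusted p under 0.01. The Duke difference minus the Michigan difference was -2.33 for RBOHG (SE 0.70, adjusted p = 0.0788) and -1.63 for RBOHI (SE 0.54, adjusted p = 0.118). For RBOHE it was -1.39 (SE 0.62, adjusted p = 0.274). The 6 hair cell markers had a median interaction of -0.85, with 1 called, and the part of this in the member values was not tested.

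**Figure D2:**
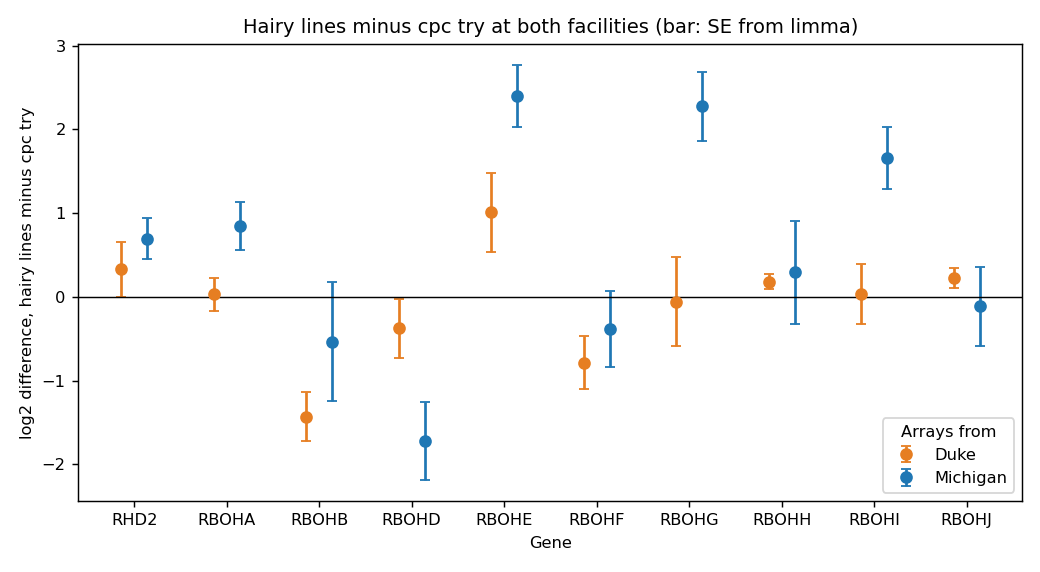
Log2 difference of each family member, hairy lines minus cpc try, at Duke (orange) and Michigan (blue), with SE from limma as bars. RBOHE and RBOHG were called at Michigan, at 2.40 and 2.28, and no member was called at Duke.

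Within the hairy class, comparisons of single lines were added after values had been seen. At Michigan no member differed between wer myb23, gl3 egl3 and ttg at 1% FDR by limma, where 0.275% of genes did for ttg minus wer myb23, 0.205% for ttg minus gl3 egl3 and 0% for wer myb23 minus gl3 egl3. At Duke RBOHD, the oxidase of the immune oxidative burst, read 8.21, 8.06 and 7.45 in ttg, against 4.83, 4.71 and 5.10 in wer myb23. The groups did not overlap, with a difference of 3.02 (SE 0.43, adjusted p = 0.00336), the 1 member called of 10, where 2.16% of genes were called. Of 10 stress response genes, 2 were called, both higher in ttg, and their median difference was 1.35, against -0.01 over all genes. The mean of the stress list was 9.99 in ttg and 8.39 in wer myb23, and its part in the RBOHD difference was not tested. At Michigan the same pair overlapped for RBOHD, with 4.24, 4.73 and 5.67 in ttg against 5.14, 6.81 and 5.98 in wer myb23 and a difference of -1.10 (SE 0.57, adjusted p = 0.468). For wer myb23 minus gl3 egl3 at Duke, RBOHH and RBOHJ were called at -0.53 and -0.67, in a comparison that called 28.7% of all genes, and for ttg minus gl3 egl3 RBOHH was called at -0.46, where 15.8% were.

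Each hairy line was also set against cpc try alone, again after values had been seen. At Michigan RBOHE was called in wer myb23 (2.35, adjusted p = 0.00739) and in gl3 egl3 (2.78, adjusted p = 0.00371), and in ttg it differed by 2.07 (adjusted p = 0.0209). RBOHG was called in wer myb23 (2.51, adjusted p = 0.00841) and differed by 2.19 in gl3 egl3 (adjusted p = 0.0239) and by 2.12 in ttg (adjusted p = 0.0295). These comparisons called 4.68% of genes for wer myb23, 2.7% for gl3 egl3 and 2.54% for ttg. RHD2 did not overlap cpc try in gl3 egl3, with a difference of 0.91 (SE 0.30, adjusted p = 0.107). At Duke 1 member was called, RBOHH in gl3 egl3 (0.51, adjusted p = 0.00581), where 17.1% of genes were, and none in wer myb23 (3.08%) or ttg (2.71%).

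Across the 17 mutant lines, each set against wild type at 2-fold and 5% FDR, members were called in 1 line. The comparisons called 2 of the member and line pairs, where 0.731% of all gene and line pairs were called. Both were in cpc try, in which 4.14% of genes were called. RBOHE was lower in cpc try than in wild type, with 7.32, 7.18 and 5.81 against 8.69, 9.20 and 8.34, a difference of -1.97 (SE 0.49, limma adjusted p = 0.00717). RBOHG was lower too, with 7.94, 6.41 and 5.43 against 8.35, 9.19 and 9.04, a difference of -2.27 (SE 0.51, adjusted p = 0.00227). RBOHI had 7.08, 6.20 and 5.79 in cpc try against 7.76, 8.42 and 7.71 in wild type. Its groups did not overlap either, and the difference was -1.61 (SE 0.52, adjusted p = 0.065). RHD2 had a difference of -0.46 (SE 0.30, adjusted p = 0.593). These comparisons share the cpc try arrays with those above. Without cpc try replicate 3 the differences of RBOHE and RBOHG were -1.49 (adjusted p = 0.142) and -1.68 (adjusted p = 0.0793), and without wild type replicate 2 RBOHE had -1.75 (adjusted p = 0.0687).

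The rhd2 line asks what the loss of the root hair oxidase does to its own transcript and to its relatives. RHD2 read 9.62, 9.30 and 9.96 in rhd2, against 10.06, 10.41 and 9.78 in wild type. The arrays overlapped, and the difference was -0.45 (SE 0.30, limma adjusted p = 1.00), and since the allele changes a base within the transcript, this signal does not check the label. None of the 10 members was called in rhd2, where 0.00933% of genes were, and none had an unadjusted p under 0.01. The other members had differences between -0.58 for RBOHG (SE 0.51) and 0.48 for RBOHA (SE 0.36), and RBOHI did not overlap wild type, at -0.39 (SE 0.52). RBOHE, RBOHG and RBOHI were tight in this line, with SDs of 0.211, 0.186 and 0.0772, whereas RBOHD read 6.31, 5.92 and 9.47. No gene of the regulator, calcium entry or peroxide removal lists was called in rhd2. The fit called only 2 of 21440 genes in rhd2, and likewise 2 in myc1. The paper, with SAM, reported more changed genes in each line among its core genes alone. A missing call in these lines therefore does not show a lack of change.

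In csld3, which lacks a cellulose synthase-like protein of root hairs, RBOHG read 6.90, 6.95 and 8.41, against 8.35, 9.19 and 9.04 in wild type. The third csld3 array overlapped wild type, and the difference was -1.44 (SE 0.51, adjusted p = 0.0815). Without that array the difference was -1.93 (adjusted p = 0.0266), which passes 5% FDR. RBOHJ, RBOHF and RBOHI did not overlap wild type in csld3. Their differences were 1.28 for RBOHJ (SE 0.70, limma adjusted p = 0.247), -0.96 for RBOHF (SE 0.45, adjusted p = 0.176) and -1.16 for RBOHI (SE 0.52, adjusted p = 0.163). RHD2 had -0.69 (SE 0.30, adjusted p = 0.143). The share of all genes without overlap in csld3 was not counted. None of the 10 members was called by limma in csld3, where 3.05% of genes were, and 1 had an unadjusted p under 0.01. In the map of the 17 lines, cpc try and csld3 have the lowest RBOHI differences, and the highest difference of any member is that of RBOHH in myc1.

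RBOHH read 7.03, 6.50 and 6.86 in myc1, against 5.61, 5.27 and 4.65 in wild type, without overlap. The difference was 1.62 (SE 0.93, adjusted p = 0.366) in the fit of all groups, in which 0.00933% of genes were called in myc1. In a fit of only myc1 and wild type, limma called RBOHH (adjusted p = 0.0146) and RBOHJ (adjusted p = 0.0394). That fit takes the spread from these groups alone. The RBOHH SD was 0.266 in myc1 and 0.486 in wild type, against 1.18 pooled over the 21 Michigan groups. The same kind of fit called RBOHD in ttg, at -2.06 (adjusted p = 0.0323, against 0.546 in the fit of all groups, which called 0.882% of genes), and no longer called RBOHE or RBOHG in cpc try (adjusted p = 0.0539 and 0.099). The share of all genes called in fits of only the groups compared was not counted, so these calls have no background beside them.

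**Figure D3:**
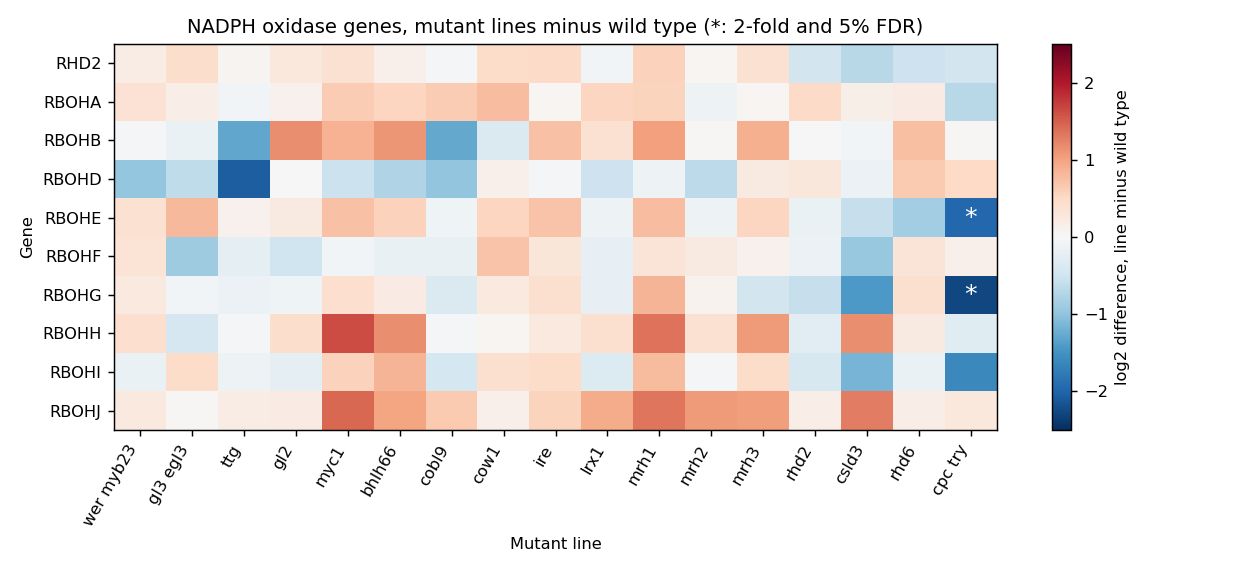
Log2 difference of each family member in each of 17 mutant lines, line minus wild type, on Michigan arrays. Blue is lower in the line and red is higher, and the asterisks mark RBOHE and RBOHG in cpc try, the pairs past 2-fold and 5% FDR.

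Comparisons with cpc try as the baseline asked how members behave in rhd6, where hairs fail to start, and in gl2, where hair cells replace non-hair cells. RHD6 is a transcription factor that starts hair formation. RBOHG read 8.73, 9.41 and 9.64 in rhd6, against 7.94, 6.41 and 5.43 in cpc try, with no overlap and a difference of 2.67 (SE 0.51, limma adjusted p = 0.000471). It was the 1 member of 10 past 2-fold and 2% FDR, where 2.78% of genes were. RBOHG in rhd6 also lay close to wild type, with a difference of 0.40 (SE 0.51, adjusted p = 0.938). RBOHE had 7.29, 8.13 and 8.19 in rhd6, which overlapped the 7.32, 7.18 and 5.81 of cpc try, and a difference of 1.10 (SE 0.49, adjusted p = 0.215). Against wild type RBOHE in rhd6 was -0.88 (SE 0.49, adjusted p = 0.69) without overlap, and no member was called, where 1.88% of genes were. RBOHI did not overlap cpc try in rhd6, with a difference of 1.45 (SE 0.52, adjusted p = 0.102). RHD2 differed between rhd6 and cpc try by -0.05 (SE 0.30). The sample descriptions place 2 rhd6 arrays in an S series and 1 in an x series, and all 3 cpc try arrays in a numbered series. Within this comparison, line and array series cannot be told apart. The RBOHG call was lost in limma with the array series as a factor (2.54, adjusted p = 0.0282) and without cpc try replicate 3 (2.09, adjusted p = 0.0231).

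GL2 is a transcription factor that represses hair fate. Both genes stood higher in gl2 than in cpc try. RBOHE read 9.90, 8.82 and 8.17 in gl2, a difference of 2.19 (SE 0.49, limma adjusted p = 0.00181), and RBOHG 9.22, 8.55 and 8.52, a difference of 2.17 (SE 0.51, adjusted p = 0.00315). These 2 of 10 members compare with 5.87% of all genes at 2-fold and 5% FDR. Without cpc try replicate 3, RBOHG had 1.59 (adjusted p = 0.0879). In a fit of only these groups neither gene was called (adjusted p = 0.0686 for RBOHE and 0.0901 for RBOHG), and the same held for RBOHG in rhd6 (adjusted p = 0.0872). RBOHI and RHD2 had differences of 1.39 (SE 0.52, adjusted p = 0.103) and 0.72 (SE 0.30, adjusted p = 0.15) in gl2. All 6 hair cell markers were called higher in gl2 as well, with a median difference of 5.33. All 3 non-hair markers were called lower, by -1.81 to -2.67, as was FEZ (-1.52, adjusted p = 0.045), and BRN2 was called higher (1.05, adjusted p = 0.0492), while SMB and BRN1 differed by -0.09 and 0.53. In rhd6 minus cpc try, 3 hair markers were called higher and all 3 non-hair markers lower, with 1.20 for BRN2 (adjusted p = 0.0275) and -1.38 for FEZ (adjusted p = 0.095). Their part in the member values was not tested.

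The hormone treatments of rhd6 seedlings addressed members that follow hair formation when it is restored. No member passed 2-fold and 0.5% FDR in limma, under IAA (0.135% of genes called) or ACC (0.345%), and RBOHE alone had an unadjusted p under 0.01 together with a 2-fold change, in both. RBOHE read 8.81, 8.21 and 9.33 on IAA and 8.26, 8.40 and 8.33 on ACC, against 6.92, 7.78 and 6.26 on MS. Neither treatment overlapped MS. The share of all genes without overlap was not counted for the hormones. The differences were 1.8 for IAA (SE 0.49, adjusted p = 0.0435) and 1.34 for ACC (SE 0.49, adjusted p = 0.356). RHD2 read 10.52, 9.96 and 10.5 on IAA and 9.81, 10.09 and 10.08 on ACC, against 9.02, 9.57 and 9.41 on MS. It did not overlap MS either, with differences of 0.99 (SE 0.30, adjusted p = 0.0527) and 0.66 (SE 0.30, adjusted p = 0.536).

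RBOHD read 8.62, 7.64 and 8.15 on IAA and 7.74, 7.64 and 7.30 on ACC, against 6.18, 6.86 and 5.20 on MS, with differences of 2.06 (SE 0.89, adjusted p = 0.133) and 1.48 (SE 0.89, adjusted p = 0.668). The stress list averaged 10.87 on IAA and 10.84 on ACC, the highest of the 21 Michigan groups, against 10.37 on MS, and its part in the RBOHD values was not tested. RBOHF did not overlap MS in either, with differences of 0.92 and 0.74 and adjusted p of 0.181 and 0.668. In the rhd6 group with no treatment in its labels, RBOHD read 7.01, 8.03 and 7.74 (mean 7.59, against 7.56 on ACC) and RBOHF averaged 9.36 (9.27 on ACC), so for both genes the MS group had the lowest mean of the rhd6 groups. It was also lowest for RBOHE, with 6.99 on MS and 7.87 in rhd6, and for RHD2, with 9.33 on MS and 9.57 in rhd6. The same held for RBOHG, RBOHI, RBOHA and RBOHB, with 8.35, 7.60, 6.04 and 7.48 on MS. Only RBOHH and RBOHJ did not have their lowest rhd6 mean on MS. The difference between MS and untreated rhd6 was not tested. All 3 MS arrays are of the numbered series and none of the untreated rhd6 arrays is, so group and array series cannot be told apart there. RBOHG overlapped MS under both hormones, with differences of 0.84 for IAA (SE 0.51) and 0.16 for ACC (SE 0.51). Of the 6 hair cell markers, 3 were called higher on IAA and 4 on ACC, with median differences of 2.66 and 3.13. None of the 4 lateral root cap markers was called. On IAA, BRN2 differed by 1.05 (SE 0.34, adjusted p = 0.063) and BRN1 by 0.91 (SE 0.37, adjusted p = 0.111), and on ACC BRN1 differed by 0.78 (SE 0.37, adjusted p = 0.582), each without overlap with MS. Their part in the member values was not tested. Both treatments share the MS arrays. Between IAA and ACC no member was called by limma, where 0.014% of genes were, and adjusted p was 0.992 or more for each.

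**Figure D4:**
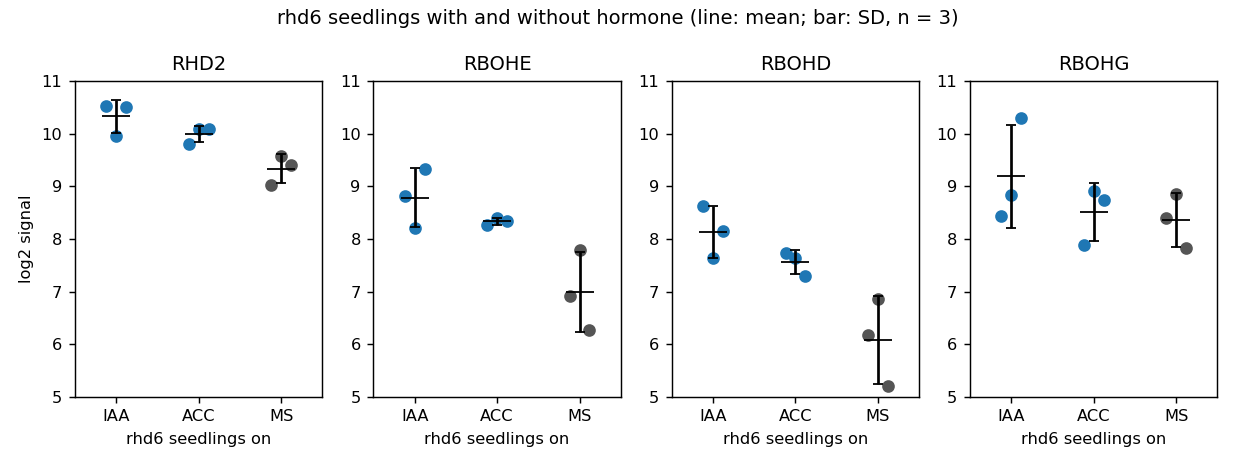
Log2 signals of RHD2, RBOHE, RBOHD and RBOHG in rhd6 seedlings on IAA, ACC and MS. Points are arrays, horizontal marks are means and bars are SD (n = 3). The RHD2, RBOHE and RBOHD arrays on both hormones lie above all MS arrays, and RBOHG overlaps MS.

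RBOHH and RBOHJ were the dimmest members at Michigan, and at Duke RBOHB was dimmer still, above 17.4% of genes. The RBOHH and RBOHJ means exceeded those of 38.0% and 27.4% of genes at Michigan and of 20.4% and 18.3% at Duke. RBOHH ranged between 4.05 and 8.26 over arrays and RBOHJ between 3.15 and 6.83. The spread lay within groups: RBOHH had a range over 2 log2 units among the 3 arrays of 11 of the 21 groups, and a pooled SD of 1.18. In mrh3 RBOHH read 6.07, 8.26 and 4.38 and RBOHJ 4.24, 6.83 and 3.76. In lrx1 RBOHH read 7.79, 4.80 and 4.12 and RBOHJ 6.70, 4.22 and 3.56. The same array was highest for both genes in 19 of all 25 groups, and the same array was lowest in 19. For comparison, RHD2 shared its highest array with RBOHH in 8 groups and with RBOHG in 19. Over the 21 Michigan group means RBOHH and RBOHJ had r = 0.874, the highest of any pair of members. These points share libraries and group sizes of 3, so the value is a description. Neither gene was called in the F test (adjusted p = 0.694 and 0.612). At Duke both had narrow ranges over all arrays, 4.305 to 5.06 for RBOHH and 4.11 to 5.22 for RBOHJ.

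**Figure D5:**
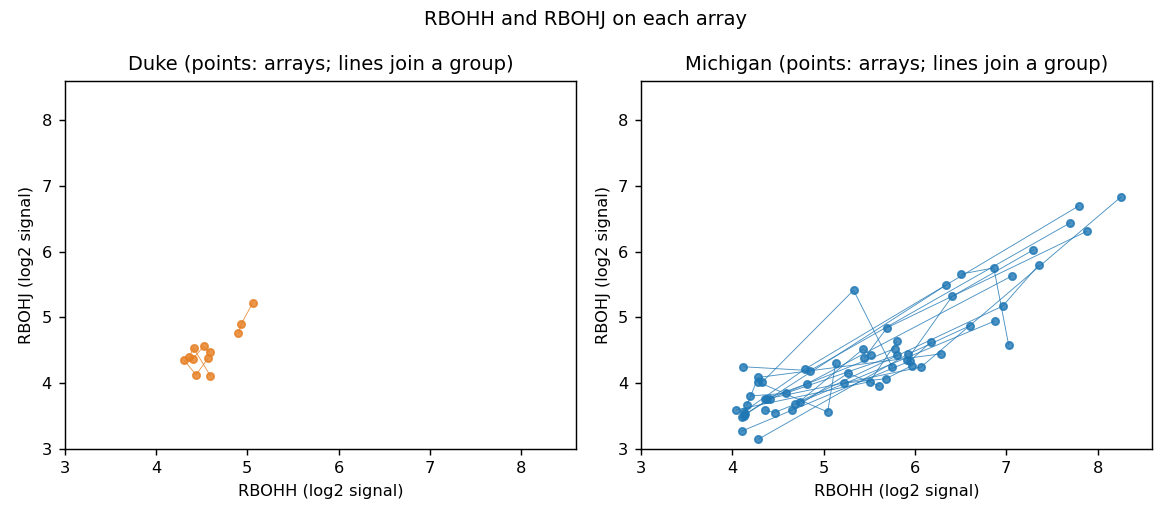
RBOHJ against RBOHH log2 signal on each Duke (left) and Michigan (right) array, with lines joining the arrays of a group. The same array was highest for both genes in 19 of the 25 groups. RBOHH reaches 8.26 at Michigan, and both genes stay at or below 5.22 at Duke.

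RBOHD and RBOHB were the other members with wide replicate spread at Michigan, with pooled SDs of 1.14 and 1.09. RBOHD had 1 array far above its fellows in several lines: 9.47 in rhd2, 9.59 in mrh3, 8.92 in ire, 8.85 in mrh1 and 8.73 in lrx1. The array with the lowest RBOHD was also the one with the lowest stress list mean in 16 of 25 groups, and the highest coincided in 12. For the other members the lowest coincided in 6 to 14 groups (14 for RBOHF). Their highest coincided in 7 to 13 (13 for RBOHA). RBOHB ranged between 5.46 and 10.14, with 9.44 and 5.46 both found in mrh2. RBOHA and RBOHF had pooled SDs of 0.455 and 0.563, with group means spanning 1.45 and 1.66. RBOHA had its lowest group mean in cpc try, at 5.56, and RBOHF in csld3, at 8.09, and neither passed the F test (adjusted p = 0.113 and 0.125). RBOHF, which also takes part in building the barrier of the root endodermis, was bright, above 79.7% of genes at Michigan.

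In mrh2, whose replicate 1 had low hair markers, RBOHE read 6.84, 9.35 and 9.65 and RBOHI 5.92, 8.74 and 9.06. RHD2 was not low in that array, with 10.04, 9.75 and 10.60. Without that array RBOHE was 0.76 above wild type in place of -0.13, and RBOHI 0.94 above in place of -0.06, with no call in either case.

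The members called in the F test were also set against each other. Over the 21 Michigan group means r was 0.872 for RHD2 with RBOHE, 0.855 for RBOHG with RBOHI and 0.803 for RBOHE with RBOHI, and the lowest of the pairs among these genes was 0.643 for RHD2 with RBOHG. With the mean of the 6 hair cell markers, r was 0.928 for RBOHE, 0.72 for RHD2, 0.627 for RBOHI and 0.578 for RBOHG. The remaining members had 0.61 for RBOHA and between -0.305 and 0.364 for the others. The marker list includes RHD6, COBL9 and LRX1, which are themselves mutated in lines of the set. All 6 markers are core genes of the paper, chosen on arrays that include the Michigan hairy lines and cpc try. The r with them is therefore a description.

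Of the whole file, the 3 genes most like RHD2 in their 21 Michigan group means were AT4G30320 (r = 0.921), GLX2-5, a glyoxalase (0.92), and PSS1, a phosphatidylserine synthase (0.903). Most like RBOHE were AT5G61550 (r = 0.977), the cellulose synthase-like gene CSLD2 (0.973) and AT1G62320 (0.97). RBOHG was nearest to the kinase CIPK18 (0.905), the MAP kinase MPK9 (0.894) and the patellin PATL2 (0.887). RBOHI was also nearest to MPK9 (0.905), followed by AT1G05790 (0.882) and GRV2 (0.879). RBOHB followed AT1G27030 (0.871), AT1G19450 (0.838) and 4CL1 (0.838), a lignin pathway enzyme. RBOHD followed AT4G36988 and HSF4 (0.846 each), which had identical values on every array, and AT1G19025 (0.845). RBOHH followed AT5G37040 (0.964), AT3G05180 (0.955) and AT1G67635 (0.955). These are the highest of 21440 genes by choice and share all arrays with the member.

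The next lists hold genes that act with the NADPH oxidases. Of 14 measured regulators, the hairy lines had 5 called higher relative to cpc try at Michigan and 3 at Duke, with none lower. Of all genes, 5.11% and 3.46% were called in either direction. The list median was 0.11 at Michigan and 0.33 at Duke, against -0.03 and 0.03 over all genes. At Michigan the top 3 were ROPGEF4, an exchange factor of ROP GTPases in root hair growth (10.13 in the hairy lines and 4.50 in cpc try, a difference of 5.63, SE 0.26, adjusted p = 1.56e-07), bHLH54, also called RSL4, a transcription factor of hair growth (5.17, SE 0.32, adjusted p = 1.15e-06), and ROPGEF3, the exchange factor that marks the site where a hair starts (1.79, SE 0.37, adjusted p = 0.00854). At Duke they were bHLH54 (3.42, SE 0.40, adjusted p = 0.000705), ROPGEF4 (3.29, SE 0.57, adjusted p = 0.00664) and SCN1, which confines RHD2 activity to 1 site of the cell (1.58, SE 0.26, adjusted p = 0.00486). The genes bHLH54 and ROPGEF4 are core genes of the paper, chosen for a change between hairy lines and cpc try on these arrays. Against wild type, 3 regulators were lower in cpc try and 2 in rhd6: bHLH54 by -5.02 and -2.35, ROPGEF4 by -5.46 and -2.56, and SCN1 by -1.17 in cpc try. Those lines had 4.14% and 1.88% of all genes called. In csld3 the receptor kinase FER was lower, by -1.14 (adjusted p = 0.0249). In gl2, 4 regulators were called higher than in cpc try, where 5.87% of all genes were called. The top 3 were ROPGEF4 (5.88), bHLH54 (5.30) and SCN1 (1.48). On ACC 1 regulator was called, bHLH54, with 8.33 against 6.14 on MS (2.19, SE 0.44, adjusted p = 0.0031), and on IAA none was.

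Of 6 calcium entry genes, the channel gene CNGC9 was called higher in Michigan hairy lines (9.44 there and 7.06 in cpc try, a difference of 2.38, SE 0.25, adjusted p = 9.77e-05), and CNGC6 was called lower in Duke hairy lines (7.97 there and 8.85 in cpc try, a difference of -0.88, SE 0.15, adjusted p = 0.00505). CNGC9 was also lower than in wild type in cpc try (-2.36) and in rhd6 (-1.40). Of 17 genes that remove superoxide and peroxide, CAT1, a catalase, was called higher in the Duke hairy lines (0.92, SE 0.17, adjusted p = 0.00931), and CSD1, a superoxide dismutase, lower in csld3 than in wild type (-1.17, SE 0.21, adjusted p = 0.000391). In the Michigan hairy lines none of the 17 was called, with a list median of 0.01. Of 8 ferric reductase oxidases, membrane proteins related to the family, FRO3 and FRO8 were used here. Neither was called in the hairy lines at either facility, in any line against wild type or under the hormones, and FRO3 was called in wer myb23 minus gl3 egl3 at Duke (-2.38, adjusted p = 0.00286), where 28.7% of genes were called. In those arrays the lateral root cap markers BRN1 and BRN2 differed by -2.42 (adjusted p = 0.0129) and -2.09 (adjusted p = 0.00906), and their part in the FRO3 difference was not tested.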

How the data were processed

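The authors deposited log2 values per gene and array, made with RMA (named in the submitters' processing notes) including its quantile step, with custom probe sets that give each locus 1 value. Which arrays were normalized together is not given in the sources used here. The values were used as deposited, after 64 control probe sets were left out. The study's methods used SAM. Here lmFit and eBayes of limma 3.58.1 in R 4.3.3 gave moderated tests with 1 mean per group, adjusted over 21440 genes by the Benjamini-Hochberg method. The Michigan lines and treatments were fitted on 63 arrays, the hairy lines against cpc try on 12 arrays per facility and the interaction on 24. Overlap of arrays between groups was read only for the genes of the lists, so it has no share of all genes beside it in any comparison. All limma p-values in the text come from these fits. Thresholds were 1% FDR for hairy lines against cpc try, and 2-fold with 5% FDR for lines against wild type and gl2 against cpc try, 2% FDR for rhd6 against cpc try and 0.5% FDR for hormones.

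The number of arrays limits the precision. The fits were also run on simulated data, drawn as independent normal values without array or series effects. That run does not bear on the outlying arrays described here, and its outcome is not used. Members and gene lists were chosen with earlier results of these data known. Named genes were all members, at most 3 called genes per list and direction, and the 3 genes nearest by Pearson r to RHD2 and to each member spanning over 2 log2 units. Names came from the RefSeq table of assembly TAIR10.1, in which 21222 loci matched. Coordinates were not used. CIPK26 and 6 ferric reductase oxidase genes were not used here. Replicate numbers were checked for pairing by correlating same-numbered arrays in their deviations from group means. All 3 pairs were above 0.1 for gl2 with cpc try and for 3 of 17 lines with wild type (cow1, lrx1 and rhd6). No main fit was paired, also for these lines. The replicate number entered only as a block in an alternative setting.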

Additional observations from a re-analysis of the deposited data

How the results depend on the processing

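Leaving out 1 array at a time gave 0 to 3 members called in the hairy lines against cpc try at Michigan (2 with all arrays), 0 to 1 at Duke (0), 0 to 0 for the facility difference, 0 to 3 over the mutant lines (2), 0 to 1 in rhd6 against cpc try (1), 1 to 2 in gl2 against cpc try (2) and 0 to 0 for both hormones. The arrays that removed calls were cpc try replicates 2 and 3, ttg replicate 1 and wild type replicate 2, and those that added one were cpc try replicate 1 (Michigan and Duke), wer myb23 replicate 3 and csld3 replicate 3. In mrh2 against wild type, leaving out 1 array moved RBOHE between -0.65 and 0.76 and RBOHI between -0.63 and 0.94.

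At an unadjusted p under 0.01 the members called were 4 at Michigan, 1 at Duke, 2 for the facility difference, 4 over the mutant lines, 2 in rhd6 and 1 for each hormone. The share of all genes passing this rule was not counted, here or where it is used above. These counts therefore cannot be set against all genes. Without the gl3 egl3 arrays, chosen after seeing the data, 0 were called at Michigan. In a fit of only the groups compared, 0 were called in rhd6 and 0 in gl2 against cpc try, and with the array series as a factor 0 were called in rhd6. With quantile normalization of the arrays fitted RBOHI in mrh2 was 0.00146 above wild type, in place of -0.06. The causes were not tested. RBOHB at Duke has no value without dim genes, since it was among them.

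With the replicate number as a block, 3 members were called at Michigan in place of 2 (RBOHI added), and no other call of a member changed. Shifting arrays to 1 median and leaving out dim genes changed no call among the members' differences examined. The RBOHB signals of the Duke hairy lines lay close to the 5th percentile of their arrays, which limits how large a decrease can be seen.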
